A study of Homo sapiens with 18 samples.

Results

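The AP-1 and immediate early genes described here are 10 named genes, chosen by symbol and matched through their Entrez identifiers among 18475 genes of the deposited table: FOS, FOSB and FOSL1 of the FOS family, JUN, JUNB and JUND of the JUN family, the zinc finger transcription factor EGR1, the immediate early response genes IER2 and IER3, and the phosphatase gene DUSP1. Their mRNA levels were followed in 3 lung cell lines without irradiation and 24 h after a single dose of 10 Gy of X-rays, with 3 libraries per group and 18 libraries in all. BEAS-2B is a line of bronchial epithelial cells immortalised with a viral hybrid, A549 is a lung adenocarcinoma line, and H446 is a small cell lung cancer line. All were labelled wild type, the unirradiated libraries were labelled as control, with titles that place them before the dose, and no time of their own was given for them. Each line stands for 1 established culture. Nothing in the labels said whether the libraries of a group came from separate cultures, so the p-values measure the spread between these libraries, which may be technical.

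Immediate early genes are transcribed within minutes of a growth signal or a stress, without the need for new protein, and their mRNAs usually decay quickly. FOS and JUN proteins pair through leucine zippers to form AP-1, which binds DNA at a short palindrome, and the make-up of the pair sets how strongly it activates. MAP kinases act on the factors that switch these genes on, and DUSP1, itself an immediate early gene, removes phosphate from JNK and p38 and so limits the signal. Ionising radiation is known as one of the stresses that induce JUN, FOS and EGR1 within hours.

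The values are FPKM, fragments scaled to the length of the transcript and to the size of the library. This puts genes and libraries on 1 scale but does not remove differences in make-up between libraries, such as the GC trends below. The total FPKM per library lay between 461255 and 529936, and the number of reads is unknown, so that no counting interval is given. Differences are given on the scale of log2(FPKM + 1) with their standard error (SE) from limma, which understates changes of genes near 1 FPKM, and a gene was said to rise or fall at an adjusted p under 0.05 over all genes tested (Benjamini-Hochberg). In such bulk samples, fewer cells with a transcript and less of it per cell cannot be told apart.

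Certain features of the libraries touch the results. The library labelled BEAS-2B 10 Gy replicate 2 stood apart: among 12 p53 target genes, the usual check of irradiation, it had a median difference of 0.07 (log2) to the mean of the controls, where the other two irradiated libraries of this line had 0.76 and 0.96. CDKN1A, the p21 gene, was between 79.9 and 86.4 FPKM in the BEAS-2B controls and at 102.2, 309.7 and 487.8 FPKM from the lowest to the highest irradiated library. Tests within BEAS-2B are given with and without it. This library was singled out after its values were seen, so calls gained without it are a description and no test of their own. A library's offset from its line, gene by gene, also ran with the GC content of the genes, with a Spearman correlation of 0.35 to 0.46 for the unirradiated and -0.50 to -0.11 for the irradiated H446 libraries. In BEAS-2B it was -0.63 to 0.01 for the controls and -0.31 to 0.70 after 10 Gy, the highest in replicate 2, and in A549 it stayed within -0.13 to 0.17. The members are GC-rich, from 52.6% to 69.7% (JUND) in their longest transcripts, against a median of 49.0% over 17850 genes. The keratin gene KRT8 was between 500.3 and 1393 FPKM in all libraries, whereas E-cadherin (CDH1) stayed under 1 FPKM in BEAS-2B and H446 cells, as EPCAM did in A549 cells. The neuroendocrine markers CHGA, SYP and NCAM1 reached at most 0.05, 0.29 and 0.01 FPKM in any H446 library, although the label names a small cell line. The sum of 5 fibroblast markers moved with the dose in H446, from between 23.7 and 26.0 FPKM to between 29.1 and 29.7 FPKM, and in A549 cells, from between 12.5 and 13.7 to between 14.1 and 15.5 FPKM, and the sum of the epithelial markers did so in BEAS-2B, from between 993.3 and 1055 to between 1081 and 1150 FPKM, and in H446 cells, from between 2550 and 2627 to between 2210 and 2426 FPKM. Of 4 leukocyte markers 3 stayed under 1 FPKM in every line, with PTPRC at most 0.09 FPKM. The fourth, CD68, was between 26.45 and 33.47 FPKM in A549 cells, where the sum of the 4 was between 26.7 and 29.71 FPKM in the controls and between 29.89 and 33.72 FPKM after 10 Gy. The part of these markers in the results was not tested.

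The members lie on 6 chromosomes. By GENCODE 29 on GRCh38, FOS is on chromosome 14 (75278774 to 75282230, plus strand), FOSL1 on chromosome 11 (65892049 to 65900573, minus strand), JUN on chromosome 1 (58780788 to 58784327, minus strand) and IER3 on chromosome 6 (30743199 to 30744554, minus strand). EGR1 (138465490 to 138469315, plus strand) and DUSP1 (172768090 to 172771195, minus strand) are on chromosome 5. The other four are on chromosome 19: JUNB at 12791496 to 12793315 and IER2 at 13150415 to 13154908, both on the plus strand, JUND at 18279760 to 18281622 on the minus strand, and FOSB at 45467995 to 45475179 on the plus strand. JUN, JUNB and JUND have a single exon. 5 members overlap a gene on the opposite strand: FOSB overlaps ERCC1, JUNB overlaps HOOK2, IER2 overlaps AC011446.2, IER3 overlaps IER3-AS1 and DUSP1 overlaps AC022217.3. The library protocol names no step that marks the strand, so reads from bases that both genes of a pair transcribe cannot be told apart. The overlaps are of whole gene spans, and shared exons were not checked.

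The promoters of 8 of the 10 members were matched in a RefSeq table (GRCh38.p14), and windows from 250 bases before the start to 50 after it were searched on both strands for 7 letter patterns. 4 of these are sites of named factors: the CArG box, which the serum response factor SRF binds, the CREB and ATF palindrome TGACGTCA, the AP-1 palindrome TGANTCA, and GCGNGGGCG, the pattern of EGR1 itself. The other three are common core promoter elements, the TATA box (TATAA), the GC box (GGGCGG) and the CCAAT box (CCAAT). The 250 bases before the start of 3 windows are shown. EGR1 had the widest responses of the members, and DUSP1 and JUND hold the same palindrome. The responses of DUSP1 and JUND lay apart in A549 (-0.99 and -0.24) and H446 cells (0.05 and -0.51) and close in BEAS-2B cells (0.35 and 0.38). The difference between these genes was not tested. Capitals mark the sites of named factors and leave the core elements unmarked, positions count back from -1 at the base before the start, and no 2 of the capitalised matches overlap. The EGR1 window (chr5:138465229-138465478, plus strand) holds a CArG box at -105 to -96 and another at -83 to -74, and GCGNGGGCG at -198 to -190. DUSP1 (chr5:172771196-172771445, minus strand) holds TGACGTCA at -125 to -118, and JUND (chr19:18281623-18281872, minus strand) holds it at -200 to -193.
EGR1: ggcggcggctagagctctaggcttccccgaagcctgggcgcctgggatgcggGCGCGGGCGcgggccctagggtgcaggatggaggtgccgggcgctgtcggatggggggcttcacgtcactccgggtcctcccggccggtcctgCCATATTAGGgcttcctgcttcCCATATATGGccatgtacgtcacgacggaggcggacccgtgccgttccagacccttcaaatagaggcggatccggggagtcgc
DUSP1: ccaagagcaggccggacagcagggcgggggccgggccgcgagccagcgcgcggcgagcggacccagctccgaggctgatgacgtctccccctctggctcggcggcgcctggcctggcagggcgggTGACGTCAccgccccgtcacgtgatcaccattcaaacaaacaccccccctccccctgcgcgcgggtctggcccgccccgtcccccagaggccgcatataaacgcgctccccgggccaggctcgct
JUND: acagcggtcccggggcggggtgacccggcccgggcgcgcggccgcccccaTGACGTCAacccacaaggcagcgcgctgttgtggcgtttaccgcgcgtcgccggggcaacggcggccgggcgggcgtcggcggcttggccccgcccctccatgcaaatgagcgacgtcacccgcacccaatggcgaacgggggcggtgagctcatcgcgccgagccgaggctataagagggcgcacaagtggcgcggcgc

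Among 35116 promoter windows of the table, 1.29% hold a CArG box, 1.85% TGACGTCA, 7.71% TGANTCA and 9.43% GCGNGGGCG. Of the 8 members, 1 holds a CArG box, 2 hold TGACGTCA, 1 holds GCGNGGGCG and 0 hold TGANTCA. Of the core elements, the TATA box is held by 5 of the 8, the GC box by 6 and the CCAAT box by 3, where 20.4%, 45% and 34.6% of all windows hold them. A match describes letters in this window and not a bound site.

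The first comparison asked how the members stood in A549 cells 24 h after 10 Gy. Of the 10 members 9 fell, EGR1 and FOSL1 the most, and FOS did not pass the test. FOSB passed the filter on low values only through the controls, and 8 of the other 9 fell. The median difference of the members was -0.94 on the log2 scale, against -0.004 over the 11993 genes tested, of which 26.4% fell. In 9 members every irradiated library lay below every control, against 29.5% of the genes tested.

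EGR1 is a transcription factor that growth factors and radiation are known to induce through SRF. It stood at 25.2, 20.8 and 23.7 FPKM in the A549 controls and at 6.12, 5.78 and 5.63 FPKM after 10 Gy. The groups lay far apart, from a mean of 23.2 ± 2.27 (SD, n = 3) to 5.84 ± 0.251 FPKM. The difference was -1.82 (SE 0.07, adjusted p = 1.92e-09, limma), the largest fall among the members.

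Of the FOS family, FOSL1 encodes FRA-1, a subunit with a weak activation domain of its own that is often raised in carcinoma cells. Its level was 91.5, 94.4 and 85.6 FPKM in the controls and 43.2, 41.5 and 47.3 FPKM in the irradiated libraries. It fell by 1.02 on the log2 scale (SE 0.05, adjusted p = 2.52e-08, limma), with no overlap. FOS, the classic partner of JUN, was low in this line at 3.51, 3.11 and 3.06 FPKM in the controls and 2.99, 2.64 and 3.08 FPKM after 10 Gy. The groups overlapped, and the difference of -0.11 had a 95% interval from -0.28 to 0.05 (adjusted p = 0.233, limma). FOSB was lower still, at 1.40, 1.40 and 1.33 FPKM against 0.76, 0.49 and 0.69 FPKM. Its difference was -0.53 (adjusted p = 0.000446, limma), and -1.002 with a pseudocount of 0.1.

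The JUN family fell as well, unequally in size. JUN, the strongest activator among the AP-1 subunits, went from 31.2, 31.4 and 32.1 FPKM to 17.9, 14.1 and 17.9 FPKM, a difference of -0.89 (SE 0.07, adjusted p = 1.57e-06, limma). JUNB, which can dampen JUN, went from 94.99, 94.3 and 89.4 FPKM to 48.4, 41.6 and 48.9 FPKM, a difference of -0.99 (SE 0.06, adjusted p = 6.55e-08, limma). In both genes the highest irradiated library lay well under the lowest control, and replicate 2 was the lowest. JUND, the subunit that most cells keep at a steady level, went from 13.5, 12.6 and 12.7 FPKM to 11.7, 9.74 and 10.9 FPKM. Its difference was the smallest of the family at -0.24 (SE 0.06, adjusted p = 0.00701, limma).

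Of the remaining members, IER2, a nuclear protein that growth factors induce, stood at 30.5, 30.4 and 28.1 FPKM in the controls and at 15.0, 13.8 and 14.1 FPKM after 10 Gy (a difference of -1.002, SE 0.05, adjusted p = 2.27e-08, limma). DUSP1, the JNK and p38 phosphatase, stood at 213.9, 219.1 and 215.2 FPKM and fell to 110.7, 96.9 and 118.2 FPKM (a difference of -0.99, SE 0.06, adjusted p = 8.27e-08, limma). In both the groups lay far apart. IER3, a stress-inducible gene linked to cell survival, was the most abundant member in A549 cells, at 259.9, 261.45 and 244.5 FPKM in the controls and 211.45, 197.7 and 240.35 FPKM after 10 Gy. Its groups did not overlap, and the fall was small at -0.24 (SE 0.06, adjusted p = 0.0053, limma). JUND and IER3 no longer passed when all genes were tested without the filter on low values (adjusted p = 0.0561 and 0.0849, limma). With the correction for GC content, all 9 calls stood, with differences between -1.82 and -0.22.

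**Figure D1:**
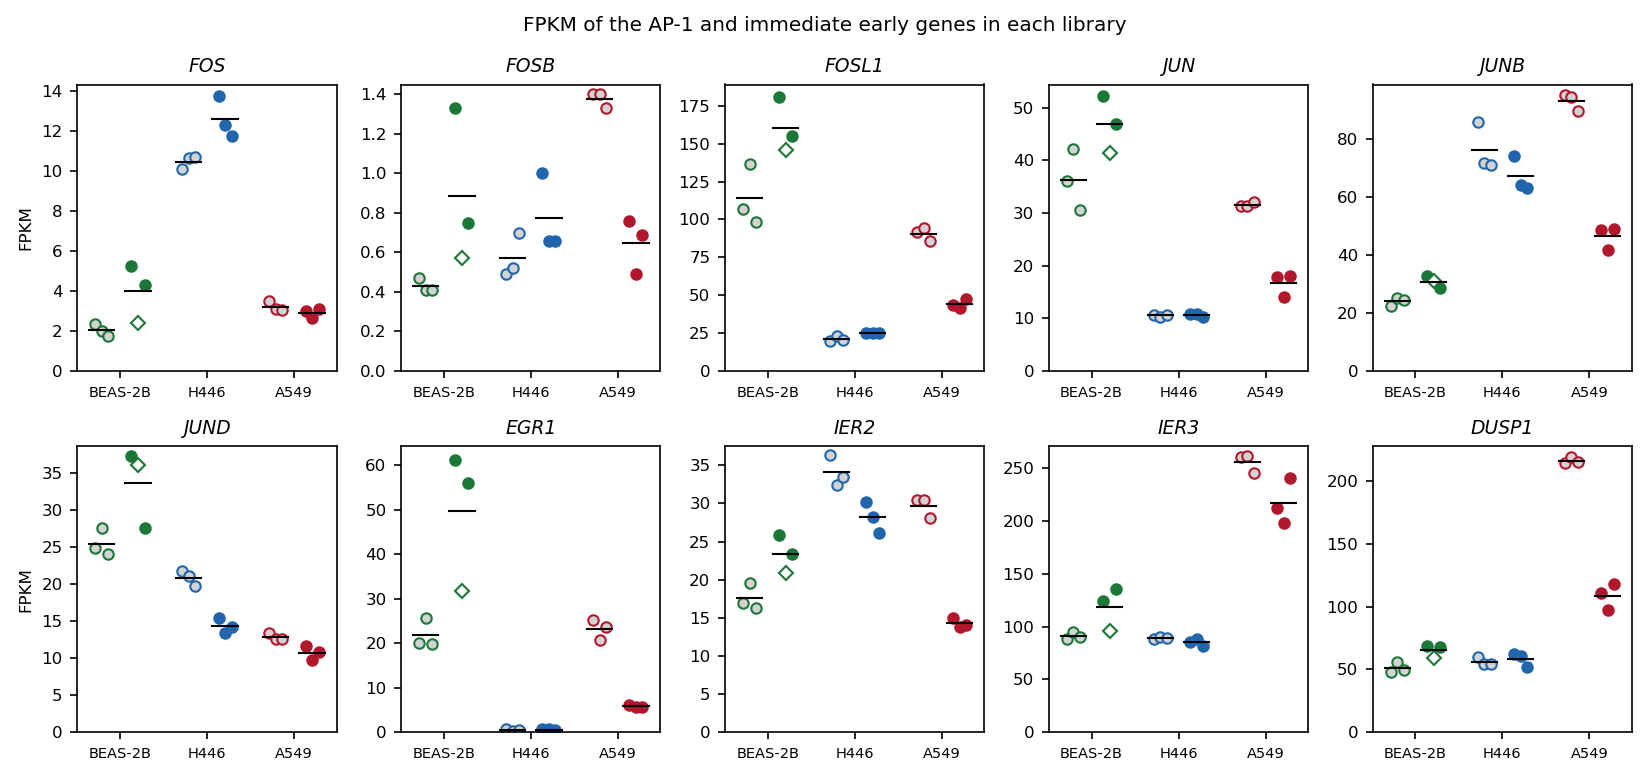
FPKM (y axes, linear and starting at 0) of each of the 10 members in the 18 libraries, by cell line along the x axes, with controls on the left of each pair (grey fill) and 10 Gy libraries on the right (solid); bars are means of 3 libraries and the open diamond is BEAS-2B 10 Gy replicate 2. In A549 cells 9 of the 10 members have every 10 Gy library below every control, while in BEAS-2B cells the 10 Gy means lie above the control means for every member.

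In BEAS-2B cells the means lay the other way. All 9 members that passed the filter had a higher mean after 10 Gy, as 50.4% of the genes tested did, between 0.35 for JUNB and 1.10 for EGR1 on the log2 scale, with a median of 0.38 against 0.002 over the 11734 genes tested. None passed the test, and 0% of the genes did: the smallest adjusted p of any gene was 0.241 (limma), while 1446 genes, 12.3%, had an unadjusted p under 0.05, among them all 9 members. In 1 fit of all 18 libraries, which shares the spread among the lines, 842 genes and all 9 members passed in BEAS-2B. In 7 of the 9 every irradiated library lay above every control, against 7.48% of the genes tested. Without replicate 2 of the irradiated libraries, 5 of the 9 rose, FOS, EGR1, IER2, IER3 and DUSP1, against 1.92% of 11680 genes, and 8 of the 9 separated the groups, against 13.7%. Replicate 2 was singled out by its weak response and was the lowest irradiated library in each of these 5, so their calls are a description. Leaving out any other BEAS-2B library gave 0 members past the test.

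EGR1 stood at 20.1, 25.6 and 19.9 FPKM in the BEAS-2B controls and at 61.3, 31.6 and 55.9 FPKM after 10 Gy. All irradiated libraries were above all controls, with replicate 2 the closest to them. The difference was 1.10 (SE 0.20, adjusted p = 0.241, limma), and 1.39 (SE 0.11, adjusted p = 0.000109, limma) without replicate 2. FOS stood at 2.36, 2.0 and 1.74 FPKM in the controls and at 5.25, 2.38 and 4.32 FPKM after 10 Gy. Replicate 2 was just above the highest control and well under the other two irradiated libraries. The difference in FOS was 0.67 (SE 0.19, adjusted p = 0.251, limma), and 0.93 (SE 0.12, adjusted p = 0.00229, limma) without that library.

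FOSL1 was the most abundant member of the line, at 107.1, 136.9 and 98.5 FPKM in the controls and 181.0, 146.0 and 155.0 FPKM after 10 Gy, so that the groups did not overlap. Its difference was 0.50 (SE 0.12, adjusted p = 0.241, limma), and 0.56 (adjusted p = 0.0621, limma) without replicate 2. JUN was at 35.97, 42.2 and 30.6 FPKM in the controls and at 52.3, 41.4 and 47.0 FPKM after 10 Gy, and replicate 2 was under the highest control. JUNB was at 22.25, 25.2 and 24.3 FPKM against 32.6, 30.8 and 28.6 FPKM, with no overlap. JUND was at 24.9, 27.7 and 24.1 FPKM against 37.3, 36.2 and 27.6 FPKM, where replicate 3 lay just under the highest control. The JUN family differences of 0.35 to 0.38 did not pass with either set of libraries (adjusted p between 0.112 and 0.292 without replicate 2, limma). FOSB stood at 0.47, 0.41 and 0.41 FPKM in the controls and at 1.33, 0.57 and 0.75 FPKM after 10 Gy. It was under the filter, and the exact two-sided permutation test gave p = 0.1, the smallest that 3 against 3 libraries allow, and p = 0.1 without replicate 2 as well.

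IER2 was at 17.0, 19.6 and 16.2 FPKM in the BEAS-2B controls and 25.8, 20.9 and 23.3 FPKM after 10 Gy. IER3 was at 88.2, 94.7 and 89.8 FPKM against 123.9, 95.8 and 135.5 FPKM. DUSP1 was at 48.2, 55.6 and 49.7 FPKM against 68.9, 59.4 and 67.9 FPKM. In all of these replicate 2 was the lowest irradiated library and still above the controls. Without it, IER2 differed by 0.46 (adjusted p = 0.0394), IER3 by 0.51 (adjusted p = 0.00922) and DUSP1 by 0.41 (adjusted p = 0.0348, limma). With a correction for GC content and all libraries the members differed by 0.21 to 1.02 and again 0 passed (smallest adjusted p of a member 0.461), and with the correction and without replicate 2 the same 5 members passed. These were FOS (0.89), EGR1 (1.33), IER2 (0.38), IER3 (0.44) and DUSP1 (0.36).

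**Figure D2:**
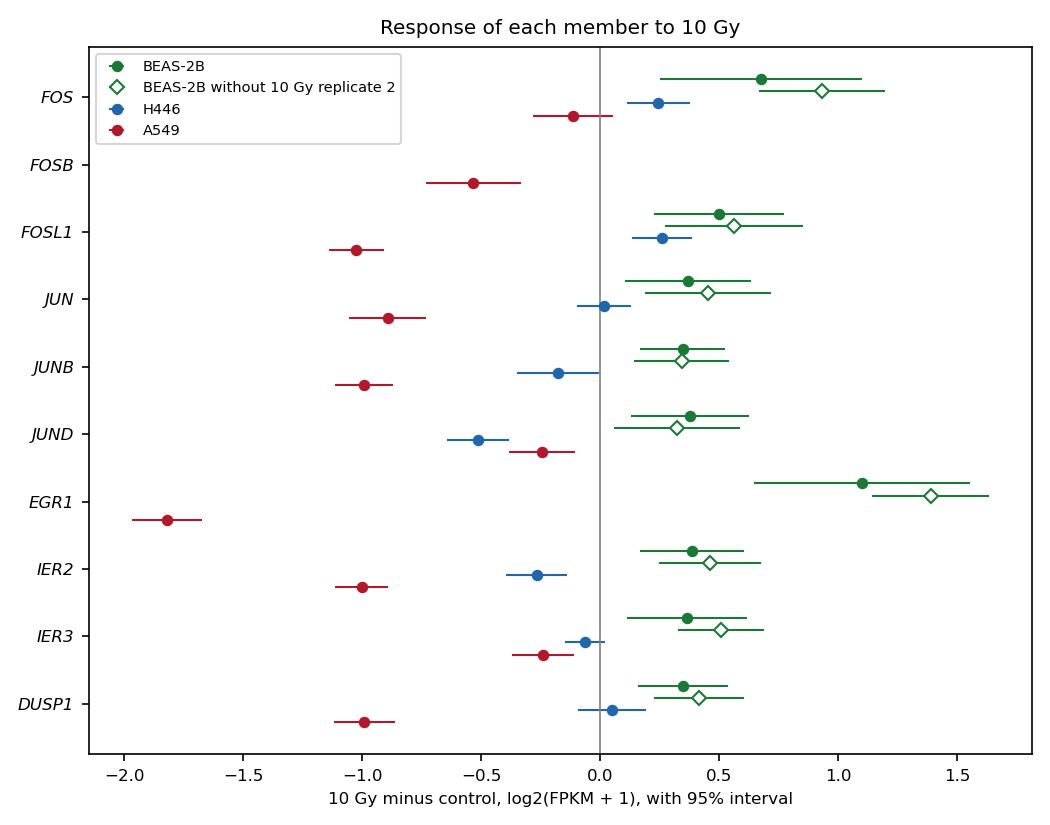
Difference between 10 Gy and control libraries in log2(FPKM + 1) (x axis) for each member (y axis), with 95% intervals from limma, in BEAS-2B (green, open diamonds without 10 Gy replicate 2), H446 (blue) and A549 cells (red); members under the filter in a line have no point there. EGR1 spans the widest range, from -1.82 in A549 to 1.10 in BEAS-2B cells, and the H446 points lie between -0.51 and 0.26.

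H446 cells showed small differences in both directions. Of the 8 members that passed the filter, FOS and FOSL1 rose and JUND and IER2 fell, against 14.8% of 11479 genes that rose and 23.6% that fell. The median of the members was -0.02, against -0.03 over all genes tested, so that the counts lay near those of the other genes. In 2 members every irradiated library lay above every control, against 20.4% of the genes, and in 2 below, against 29.9%.

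FOS was at 10.1, 10.7 and 10.7 FPKM in the H446 controls and at 13.8, 12.3 and 11.8 FPKM after 10 Gy, a rise of 0.24 (SE 0.06, adjusted p = 0.0096, limma). FOSL1 was at 19.5, 23.0 and 20.2 FPKM against 25.1, 25.2 and 25.1 FPKM, a rise of 0.26 (SE 0.06, adjusted p = 0.00525, limma). Neither overlapped between the groups. With the GC correction the rise of FOSL1 was 0.41 (SE 0.06, adjusted p = 0.000659, limma). Without the filter on low values the adjusted p was 0.0609 for FOS and 0.0571 for FOSL1, and with all 18 libraries in 1 fit 0.248 and 0.0623 (limma). JUND was at 21.9, 21.1 and 19.8 FPKM in the controls and 15.5, 13.4 and 14.3 FPKM after 10 Gy, the largest change of a member in this line, at -0.51 (SE 0.06, adjusted p = 0.000135, limma). With the GC correction this was -0.23 (adjusted p = 0.00433, limma). IER2 was at 36.4, 32.4 and 33.5 FPKM against 30.2, 28.2 and 26.1 FPKM, a fall of 0.27 on the log2 scale (SE 0.06, adjusted p = 0.0053, limma), and with the GC correction the difference was -0.09 and did not pass (adjusted p = 0.151). It did not pass without the filter either (adjusted p = 0.0664, limma).

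The other members of this line did not pass. JUN was at 10.7, 10.2 and 10.7 FPKM in the controls and 10.9, 10.9 and 10.2 FPKM after 10 Gy, with an interval of the difference from -0.10 to 0.13. JUNB was at 85.8, 71.6 and 70.9 FPKM against 74.1, 64.1 and 62.9 FPKM, and DUSP1 at 59.6, 54.5 and 54.3 FPKM against 62.1, 60.5 and 52.0 FPKM, both with overlapping groups. Without 10 Gy replicate 1, JUNB fell by 0.25 on the log2 scale (adjusted p = 0.026, limma). IER3 stayed between 81.6 and 89.7 FPKM over all 6 libraries, with a difference of -0.06 (interval -0.15 to 0.02). JUNB and IER3 turned from -0.18 and -0.06 to 0.04 and 0.07 with the GC correction. EGR1 and FOSB were under the filter: EGR1 was at 0.66, 0.37 and 0.51 FPKM against 0.67, 0.74 and 0.54 FPKM (exact permutation p = 0.2), and FOSB at 0.49, 0.52 and 0.70 FPKM against 1.0, 0.66 and 0.66 FPKM (exact permutation p = 0.3).

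The study set a normal epithelial line beside 2 cancer lines, and the difference between their responses was tested in 1 fit of all 18 libraries. The response of BEAS-2B was higher than that of A549 cells in 10 of 10 members, against 16% of 13071 genes. FOSB passed the filter through the A549 controls, where it is higher, and came under it when 1 of them was left out. The other 9 passed then as well. The median difference of the members was 1.30 on the log2 scale, against -0.0003 over all genes tested. It was 2.92 (SE 0.23, adjusted p = 9.92e-08, limma) for EGR1, 1.52 (SE 0.14, adjusted p = 3.88e-07) for FOSL1 and 0.60 (SE 0.13, adjusted p = 0.00179) for IER3, the smallest. FOS passed in neither line when each was fitted alone with all its libraries and no block for the replicate number. It passed in BEAS-2B in the fit of all 18 libraries (adjusted p = 0.0138, limma) and without 10 Gy replicate 2 (adjusted p = 0.00229, limma). Its response differed between BEAS-2B and A549 cells by 0.79 (SE 0.21, adjusted p = 0.00805, limma). Without BEAS-2B 10 Gy replicate 2 all 10 again passed, with values between 0.57 for JUND and 3.21 for EGR1, where 16.1% of the genes were higher. With the GC correction all 10 passed at 0.45 to 2.84, where 2108 genes were higher. FOSB lies near 1 FPKM or under it in every group and FOS near 2 FPKM in the BEAS-2B controls, so their differences are compressed by the added 1.

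Against H446 cells, the response of BEAS-2B was higher in 5 members, JUNB (0.52), JUND (0.89), EGR1 (0.97), IER2 (0.65) and IER3 (0.43), with adjusted p between 0.000348 and 0.0242 (limma), where 13.7% of the genes were higher. EGR1 was under the filter in H446, where its level near 0.5 FPKM bounds a response on this scale, and it entered through the other lines (with a pseudocount of 0.1 it stood at 0.82, adjusted p = 0.0483, limma). Of the 8 members that passed the filter in both lines, 4 were higher. FOS, FOSB, FOSL1, JUN and DUSP1 also had positive values, from 0.20 for FOSB to 0.43 for FOS, and did not pass. With the GC correction 3 passed, JUND (0.49), EGR1 (0.81) and IER2 (0.38), and FOSL1 stood at -0.0042. Of all genes, 628 were higher with this correction and 1796 without it. IER3 did not pass without BEAS-2B control replicate 1, BEAS-2B 10 Gy replicate 1 or H446 10 Gy replicate 3. Without BEAS-2B 10 Gy replicate 2, 8 passed, all but FOSB and FOSL1, where 11.8% of the genes were higher. Without BEAS-2B control replicate 2 the count was also 8, where 2295 genes were higher. The response of A549 was lower than that of H446 cells in 7 members, against 15.3% of the genes. FOSB is among them through the A549 controls, and the count was 6 without any 1 of these and 5 among genes at 1 FPKM or more in every library. The response differed by -1.95 (SE 0.23, adjusted p = 7.5e-06, limma) for EGR1, -1.28 for FOSL1, -1.04 for DUSP1, -0.91 for JUN, -0.81 for JUNB, -0.73 for IER2 and -0.71 for FOSB. Without EGR1 and FOSB, which were under the filter in H446, 5 of 8 members were lower. FOS, JUND and IER3 did not pass, and JUND had the opposite sign at 0.27 (interval -0.01 to 0.54). With the GC correction JUND stood at 0.04 (adjusted p = 0.768, limma), and with a block for the replicate number it passed (adjusted p = 0.0479, limma). These contrasts share libraries with each other and with the comparisons within a line.

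Before irradiation the lines differed in which members they carried, as they did in most genes: 85.1% of 12854 genes differed between A549 and BEAS-2B controls, 82.6% between H446 and BEAS-2B, and 84.4% between H446 and A549. Of the members, 8, 8 and 10 differed, which is close to these shares. EGR1 was at 21.9 ± 3.23 FPKM in BEAS-2B and 23.2 ± 2.27 FPKM in A549 controls (SD, n = 3 each), which did not differ beyond their spread (0.09, interval -0.14 to 0.31), and at 0.513 ± 0.145 FPKM in H446. FOS ran in another order, with 10.5 ± 0.33 FPKM in H446, 3.23 ± 0.247 FPKM in A549 and 2.03 ± 0.311 FPKM in BEAS-2B, each step passing the test. FOSL1 was highest in BEAS-2B at 114.1 ± 20.2 FPKM, followed by A549 at 90.5 ± 4.53 FPKM and H446 at 20.9 ± 1.84 FPKM. The step from BEAS-2B to A549 (-0.32, adjusted p = 0.0102, limma) was lost under quantile normalization (-0.17) and was -0.18 without BEAS-2B control replicate 2.

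JUN stood at 36.3 ± 5.81 FPKM in BEAS-2B and 31.6 ± 0.458 FPKM in A549 controls, neighbours whose difference did not pass the test (interval -0.37 to 0.004) except without BEAS-2B control replicate 3 (-0.30, adjusted p = 0.00099, limma), and at 10.5 ± 0.289 FPKM in H446. JUNB had the order A549 (92.9 ± 3.04 FPKM), H446 (76.1 ± 8.43 FPKM) and BEAS-2B (23.9 ± 1.52 FPKM), all steps passing. JUND had the order BEAS-2B (25.5 ± 1.91 FPKM), H446 (20.9 ± 1.06 FPKM) and A549 (12.9 ± 0.489 FPKM), all steps passing too. IER2 was highest in H446 at 34.1 ± 2.08 FPKM, close to A549 at 29.7 ± 1.39 FPKM (0.19, adjusted p = 0.0194, limma, and not past the threshold under 4 alternatives) and above BEAS-2B at 17.6 ± 1.75 FPKM. IER3 and DUSP1 stood out in A549, with 255.3 ± 9.38 and 216.0 ± 2.69 FPKM. The difference in IER3 between BEAS-2B (90.9 ± 3.38 FPKM) and H446 (89.1 ± 0.828 FPKM) did not pass (interval -0.12 to 0.07), while DUSP1 differed between them by 0.13 (adjusted p = 0.0449, limma), a call that did not pass under 6 alternatives. FOSB was at 1.38 ± 0.0404 FPKM in A549 and under 1 FPKM in both other lines, whose difference did not pass (interval -0.01 to 0.27) but did under 4 alternatives, at 0.33 with a pseudocount of 0.1 and 0.27 under quantile normalization.

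As FPKM is scaled to length, the members of each family could be summed. FOSL2, which encodes FRA-2 and is neither among the 10 members nor named by the rule for other genes, was added to complete the FOS family. FOS-family FPKM came to 150.1 ± 23.5 in BEAS-2B controls, 77.2 ± 2.68 in H446 and 182.1 ± 2.99 in A549 controls (SD, n = 3 each). FOSL1 made up 75.9% ± 1.52 of it in BEAS-2B, 49.7% ± 2.04 in A549 and 27.0% ± 1.45 in H446. FOS itself made up 13.6% ± 0.471 in H446 and less than 2% in the controls of both other lines. After 10 Gy the share of FOSL1 was 34.2% ± 1.44 in A549 cells and that of FOSL2 63.1% ± 1.65, from 47.8% ± 2.05 in the controls, with no overlap between the groups. FOSL2 itself was at 87.0 ± 3.28 FPKM in the A549 controls and 81.2 ± 1.95 FPKM after 10 Gy (-0.10, adjusted p = 0.0546, limma). In BEAS-2B cells the share of FOSL1 was 79.9% ± 0.931 after 10 Gy, above the 74.4% to 77.5% of the controls, and 80.4% without replicate 2.

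Among controls the JUN family summed to 85.7 ± 8.39 FPKM for BEAS-2B, 107.5 ± 9.43 FPKM for H446 and 137.4 ± 2.87 FPKM for A549 cells. JUN held the first place in BEAS-2B with 42.1% ± 2.99, and JUNB in H446 with 70.7% ± 1.58 and in A549 with 67.6% ± 0.847. After 10 Gy the sum was 73.7 ± 7.14 FPKM in A549, 92.04 ± 7.29 FPKM in H446 and 111.3 ± 9.82 FPKM in BEAS-2B cells (112.7 FPKM without replicate 2), in each case outside the range of the controls. The share of JUND went from 9.40% ± 0.271 to 14.6% ± 0.521 in A549 and from 19.5% ± 1.01 to 15.6% ± 0.611 in H446 cells. In BEAS-2B it was 29.8% ± 0.679 and 30.2% ± 3.31, or 28.7% without replicate 2. Sums and shares are given as a description, with no test of their own and no correction for GC content. In H446 cells the differences of JUN, JUNB and JUND went from 0.02, -0.18 and -0.51 to 0.13, 0.04 and -0.23 with that correction.

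**Figure D3:**
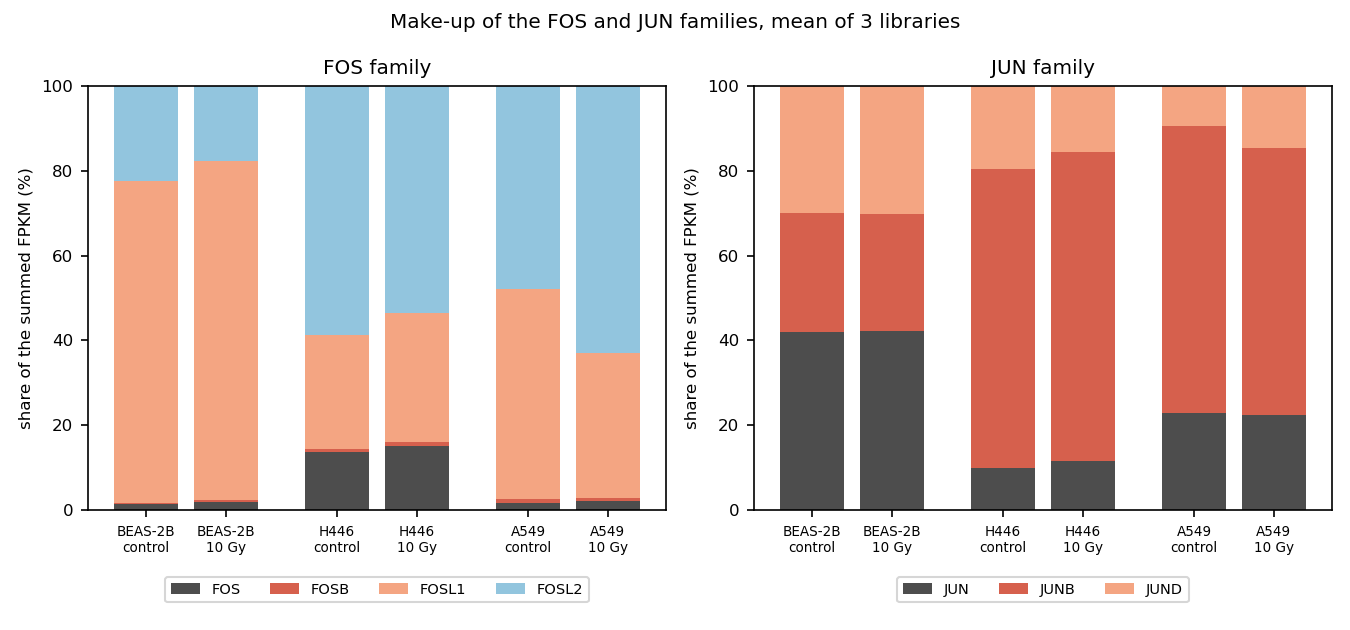
Mean share (%, n = 3 libraries) of each gene in the summed FPKM of the FOS family (left) and the JUN family (right), by cell line and treatment along the x axes. FOSL1 takes 75.9% of the FOS family in BEAS-2B controls and FOSL2 63.1% in irradiated A549 cells, while JUNB takes most of the JUN family in H446 and A549 cells.

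The other genes of the pathway were described from lists written together with that of the members. Of 15 further AP-1 subunits, 9 were tested in A549 cells, and 7 fell and 0 rose (median -0.39), beside 26.4% of all genes that fell and 25.3% that rose. MAFF, a small MAF protein with no activation domain, fell by 1.17 on the log2 scale (SE 0.09, adjusted p = 6.61e-07, limma), and the stress factor ATF3 by 1.06 (SE 0.05, adjusted p = 1.47e-08). MAFK (-0.89) and JDP2 (-0.70), a repressor that pairs with JUN, fell too. In H446 cells 10 were tested, and ATF3 rose by 0.30 while BATF3 (-0.49) and MAFG (-0.21) fell, beside 14.8% of all genes that rose and 23.6% that fell. ATF3 did not pass in 1 fit of all 18 libraries (adjusted p = 0.544, limma), BATF3 without the filter on low values (adjusted p = 0.099, limma) and MAFG with the GC correction (-0.09). In BEAS-2B cells 9 were tested and 0 passed, where ATF3 stood between 14.3 and 17.3 FPKM in the controls and between 15.0 and 68.2 FPKM after 10 Gy. Without replicate 2, ATF3 alone of this list passed, at 1.88 (SE 0.11, adjusted p = 1.02e-05, limma), where 1.92% of all genes rose. That library was singled out by the low level of its p53 target genes, so this call is a description and no test.

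Of 30 other immediate early genes, which include ATF3, 26 were tested in A549 cells, and 18 fell and 5 rose (median -0.39), beside the same 26.4% and 25.3% of all genes. The matrix protein gene CCN1 fell by 2.14 on the log2 scale, from between 186.4 and 191.1 FPKM to between 38.3 and 44.0 FPKM (adjusted p = 3.41e-11, limma). GADD45B fell by 1.78 and the transcription factor KLF2 by 1.35. BTG2, an antiproliferative gene that is also a p53 target, rose by 1.47 (SE 0.07, adjusted p = 1.12e-08, limma), so the list did not move in 1 direction. In H446 cells 14 of 26 rose and 2 fell (median 0.16), where 14.8% of all genes rose and 23.6% fell. CCN1 rose there by 1.02, from between 114.1 and 120.5 FPKM to between 236.7 and 247.1 FPKM (adjusted p = 4.54e-08, limma), followed by PLK2 (0.51), KLF6 (0.35) and TIPARP (0.32). The CCN1 responses of A549 and H446 cells differed by -3.16 (SE 0.12, adjusted p = 4.5e-12, limma). In BEAS-2B cells 24 were tested and 0 passed (median 0.24). Without replicate 2, 9 passed, all of them higher, where 1.92% of all genes rose. The count depends on the choice of that library, so it is a description and no test. BTG2 is among the 9 at 1.97, but as a p53 target it is of the kind of gene by whose low level that library was singled out, so its value there is no test.

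Of 16 genes of phosphatases and ERK pathway brakes, 14 were tested in A549 cells, and 6 fell and 3 rose, where 26.4% of all genes fell and 25.3% rose. DUSP5, a nuclear ERK phosphatase, fell by 0.72, DUSP6 by 0.34 and SPRY4 by 0.33, while DUSP16 rose by 0.34. In H446 cells 3 of 14 rose and 2 fell, where 14.8% of all genes rose and 23.6% fell, with DUSP5 at 0.37 and SPRY2 at 0.30 among those that rose and DUSP7 (-0.28) and DUSP2 (-0.26) those that fell, which did not pass with the GC correction (-0.13 and -0.06). DUSP5 did not pass in 1 fit of all 18 libraries (adjusted p = 0.088, limma). In BEAS-2B cells 0 of 16 passed, and 3 rose without replicate 2, DUSP5 (0.97) among them, where 1.92% of all genes rose. Of 25 kinases and transcription factors upstream, 8 fell and 6 rose in A549 cells (median -0.05), shares near those of all genes. SRF, the CArG box factor, fell by 0.61 (SE 0.06, adjusted p = 5.75e-06, limma) and CREB1 by 0.60 (SE 0.05, adjusted p = 9.3e-07), while RPS6KA1 and MAP3K1, kinases of the ERK and JNK branches, both rose by 0.48. In H446 cells 3 of 24 rose and 4 fell, which is near or under the 14.8% and 23.6% of all genes, with MAP2K6, a p38 kinase kinase, the lowest at -0.69. RPS6KA1 (-0.26) and MAP2K7 (-0.23) also fell there, the latter at -0.04 and not passing with the GC correction, and ELK3 rose by 0.16, a call that did not pass under 9 alternatives. In BEAS-2B cells 0 of 23 passed, and 1 rose without replicate 2, near that share.

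**Figure D4:**
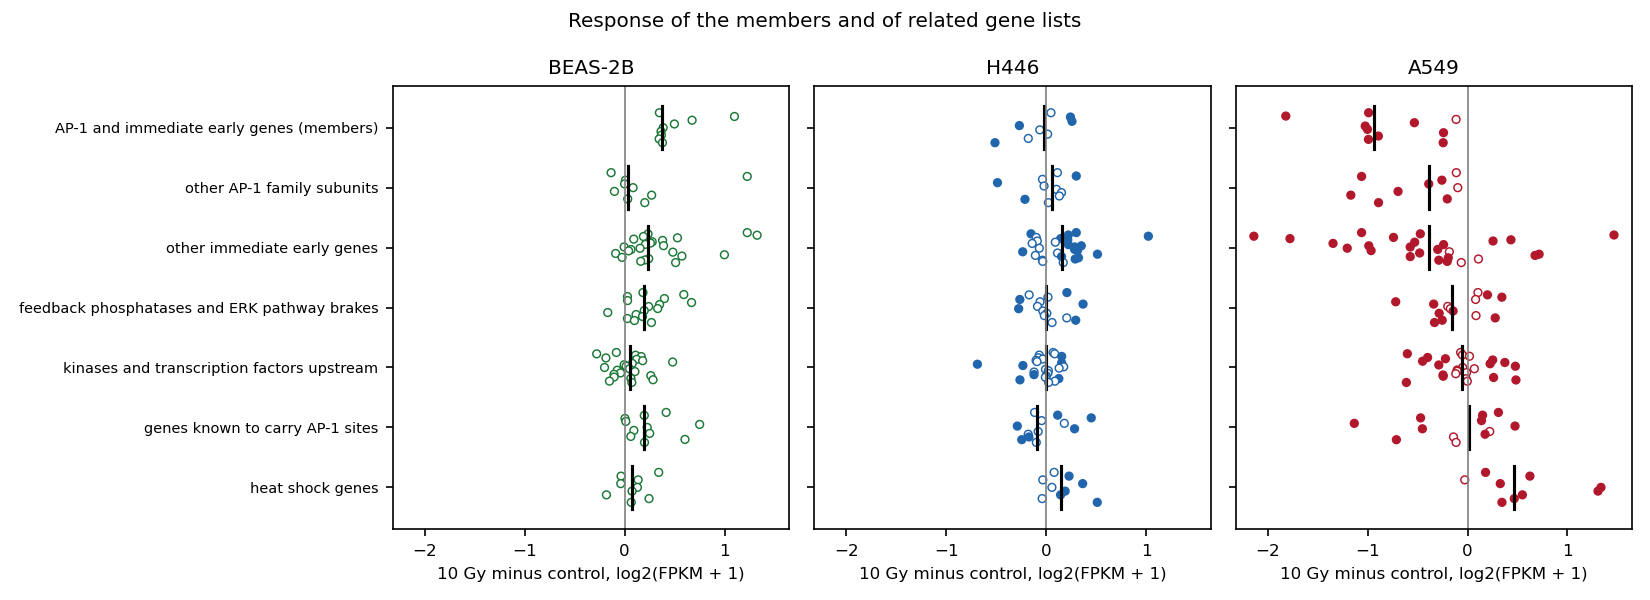
Difference between 10 Gy and control libraries in log2(FPKM + 1) (x axes) for the tested genes of the members and of 6 related lists (rows) in BEAS-2B, H446 and A549 cells (panels); filled points passed an adjusted p under 0.05, open points did not, and black bars are medians. In A549 cells the members have the lowest median (-0.94) and the heat shock genes the highest (0.47), and in BEAS-2B cells 0 points are filled.

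Of 16 genes known to carry AP-1 sites, 12 were tested in A549 cells, where 5 rose and 4 fell (median 0.01, range -1.13 to 0.48), beside 25.3% and 26.4% of all genes. The growth factor gene HBEGF fell by 1.13 from 17.6 ± 1.38 to 7.46 ± 0.797 FPKM (SD, n = 3 each) and CXCL8 by 0.47, while HMOX1 rose by 0.48. In H446 cells 3 of 12 rose, CXCL8 (0.45) and IL6 (0.28) among them, and 3 fell, HMOX1 (-0.29) among them, where 14.8% of all genes rose and 23.6% fell. The fall of HMOX1 did not pass with the GC correction (-0.16), nor the rise of IL6 without the filter on low values (adjusted p = 0.0566, limma). In BEAS-2B cells 0 of 11 passed and all 11 lay above 0, as 50.4% of all genes did, and without replicate 2 HBEGF (0.94) was among 3 that rose, where 1.92% of all genes rose. HBEGF differed in its response between BEAS-2B and A549 cells by 1.89 (SE 0.17, adjusted p = 4.53e-07, limma), as EGR1 did in the same direction, and by 2.07 (SE 0.13, adjusted p = 2.55e-09, limma) without replicate 2.

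2 lists from outside the pathway were set beside the members. Of 9 heat shock genes, a stress-inducible group of chaperones, 8 rose and 0 fell in A549 cells, where 25.3% of all genes rose and 26.4% fell, with HSPA1A at 7.96 ± 0.706 FPKM in the controls and 21.7 ± 2.52 FPKM after 10 Gy (1.34, adjusted p = 8.27e-08, limma). HSPA1B, a near-identical copy with which it may share reads, rose by 1.31, DNAJA1 by 0.62 and HSPA8 by 0.55. In H446 cells 5 of 9 rose, beside 14.8% of all genes, HSPH1 (0.51), HSP90AA1 (0.37), DNAJA1 (0.23) and HSPA1B (0.19, not past the threshold under 6 alternatives) among them, and in BEAS-2B cells 0 of 9 passed with or without replicate 2. Of 12 p53 target genes, 11 rose in A549 cells (beside the same 25.3% of all genes), FDXR (1.78), MDM2 (1.76), CDKN1A (1.54) and SESN1 (1.52) among them, and 0 of 11 passed in H446 cells. In BEAS-2B cells 0 of 11 passed. All 11 passed without replicate 2, where 1.92% of all genes rose, but that library was singled out by the low level of these same genes, so this count is no test of them.

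The genes with the course most like that of 4 members were found by Pearson's r over the 18 libraries after subtraction of the mean of each line, among about 10090 genes at 1 FPKM or more in all libraries. The points share groups and library features, so r is a description with no p. EGR1 was closest to KMT5A (r = 0.969), HBEGF (0.964) and IL11 (0.960), which fell in A549 cells by 0.38, 1.13 and 1.60 on the log2 scale. JUN was closest to another member, DUSP1 (0.968), then to NFKB2 (0.966) and ITPRIP (0.961). FOSL1 was closest to NR4A1 (0.967), CLDN1 (0.948) and CTGF (0.947). NR4A1, itself an immediate early gene, differed by 0.48 in BEAS-2B (adjusted p = 0.241, limma, and 0.55 with adjusted p = 0.0249 without replicate 2), rose by 0.31 in H446 and fell by 0.97 in A549 cells. FOS was less like any gene, with SCHIP1 (0.879), SDC4 (0.878) and RNF19B (0.871) first. Among the members, r was highest for JUNB and IER2 (0.970) and lowest for FOS and JUND (0.225). The highest r of JUND with another member was 0.649 (IER2), and that of FOS 0.779 (IER3). Over the 17 libraries without BEAS-2B 10 Gy replicate 2 the genes named here had r between 0.951 and 0.975 with EGR1, JUN and FOSL1 and between 0.867 and 0.889 with FOS, and the members between 0.307 (FOS and JUND) and 0.976 (JUNB and IER2).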

How the data were processed

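The deposited table holds 1 value per gene and library, of which the header names no unit. The values were taken as FPKM made by the authors, from their range, their total per library and the programs named in the submitters' processing notes (HISAT2 2.0.4, Bowtie2 2.2.5, RSEM 1.2.12 and the build hg38). The libraries were made from poly(A) RNA and read single-end at 50 bases. Read numbers are unknown, so depth sets no interval here, and each group has 3 libraries.

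Differences in log2(FPKM + 1) were tested with limma 3.58.1 in R 4.3.3 (empirical Bayes with a mean trend) within a line (genes with at least 1 FPKM in at least 3 of its libraries), between the responses of 2 lines (18 libraries, genes past that filter in at least 1 line) and between controls (9 libraries, at least 1 FPKM in at least 3), with Benjamini-Hochberg adjustment and a threshold of 0.05. Members under the filter were tested by an exact permutation over libraries, two-sided, which cannot go below p = 0.1. The fits were tested on simulated data. No 2 libraries of a group shared more than 3.22% of their values, and 0 value columns lacked a library. Alternatives were another added value (0.1), other filters, no trend, quantile normalization, equal totals, a loess correction for GC content (span 0.5), a replicate block, 1 fit of all libraries and leaving out each library. The correction for GC content without BEAS-2B 10 Gy replicate 2 was chosen after seeing the data.

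The members and lists were chosen with earlier results of these data known. Beside the members, the text names up to 4 genes per list and line with the largest called change, the 3 genes most correlated with each of FOS, EGR1, JUN and FOSL1, and CDKN1A. Some genes that this rule or the marker lists hold are not reported here. CCN1 stands in the table under an older symbol and was matched by its identifier. Gene positions came from GENCODE 29 and promoters from RefSeq. Python 3.11.15 (pandas 2.3.3, numpy 2.4.6, matplotlib 3.10.9) was used for tables and plots.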

Additional observations from a re-analysis of the deposited data

Results flagged for a closer look

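The responses of the lines to 10 Gy differed by a test of the difference itself in 22 cases among the members, given as log2 differences from limma. The response of BEAS-2B was above that of A549 cells by 2.92 for EGR1, 1.52 for FOSL1, 1.39 for IER2, 1.34 for JUNB, 1.34 for DUSP1, 1.26 for JUN, 0.91 for FOSB, 0.79 for FOS, 0.62 for JUND and 0.60 for IER3. It was above that of H446 cells by 0.97 for EGR1, 0.89 for JUND, 0.65 for IER2, 0.52 for JUNB and 0.43 for IER3. The difference of A549 minus H446 was -1.95 for EGR1, -1.28 for FOSL1, -1.04 for DUSP1, -0.91 for JUN, -0.81 for JUNB, -0.73 for IER2 and -0.71 for FOSB. The 3 contrasts share libraries. Of 13071 genes, 16% had a higher response in BEAS-2B than in A549 and 13.7% a higher one than in H446 cells. For 15.3% the response was lower in A549 than in H446 cells. With the GC correction, JUNB and IER3 did not pass against H446 cells (adjusted p = 0.138 and 0.381, limma). FOSB passed the filter on low values only through the A549 controls, where it is high, and EGR1 was under it in H446 cells. Both were near or under 1 FPKM in every H446 library, which bounds their response there on this scale. Without FOSB, and without EGR1 against H446, 18 cases are left.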

How the results depend on the processing

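The calls of the members in A549 cells stood under the alternatives run, 8 to 9 members when a library was left out, except that JUND and IER3 did not pass without the filter and that FOSB came under the filter without a control or with 1 FPKM or more asked of every library. The higher response of BEAS-2B than of A549 cells passed for each member tested under each alternative, 8 to 10 members, 8 where every library had to hold 1 FPKM or more and FOSB and EGR1 could not be tested. In BEAS-2B, where 0 genes and 0 members passed, the counts were 10 genes without the filter, 842 genes and 9 members in 1 fit of all libraries, 226 genes and 5 members with the GC correction without 10 Gy replicate 2, and 0 to 233 genes and 0 to 5 members when a library was left out, the highest without 10 Gy replicate 2. In H446, where 4 members passed, 1 passed without the filter and 2 in 1 fit of all libraries. With the GC correction, JUNB was at 0.0396 and IER3 at 0.0737 there, with or without the replicate block. JUN was between -0.0059 and 0.0443 when an H446 library was left out, and was at -0.0059 without control replicate 2 and -1e-04 without 10 Gy replicate 2. Between BEAS-2B and H446 responses, where 2971 genes and 5 members passed, 1367 genes and 3 members passed with the GC correction (FOSL1 at -0.0042), 1447 genes with the correction without 10 Gy replicate 2, and 1811 to 4532 genes and 4 to 8 members when a library was left out. IER3 in H446 against BEAS-2B controls was at 0.0045 under quantile normalization, 0.0756 with equal totals and between -0.0488 and 0.0018 when a BEAS-2B or H446 control was left out, the highest without BEAS-2B control replicate 2. The cause was not tested. Labels give the replicate numbers in each group, but deviations of same-numbered libraries correlated between -0.125 and 0.324, so the numbers were not taken as pairs, and not every library correlated best with its own number. With the replicate block, 439 genes and 9 members passed in BEAS-2B, 5903 and 9 in A549 and 4288 and 5 in H446. With the block and the GC correction 0 genes and 0 members passed in BEAS-2B, 3191 and 4 in H446 and 6086 and 9 in A549.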
